A study of Saccharomyces cerevisiae with 18 samples.

Results

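The 10 genes described here are 4 pairs of budding yeast genes whose products do the same work but are made at different oxygen levels, together with *ROX1* and *HEM13*. They were chosen by gene symbol, as the aerobic and hypoxic members of the pairs *CYC1* and *CYC7*, *COX5A* and *COX5B*, *AAC1* and *AAC3*, and *HYP2* and *ANB1*. Each had 1 probe set, out of 5469 *Saccharomyces cerevisiae* probe sets that carry 1 gene symbol. All 10 lay above background on all 18 arrays and were among the 5424 probe sets tested. Total RNA was hybridised to Affymetrix Yeast 2.0 arrays, on which each transcript is read by a set of short probes, and every level below is a log2 signal. The strains derive from Sigma1278b, a background that forms structured colonies when the cell-surface flocculin gene *FLO11* is active. Colonies of KV473 and KV63, both labelled as *FLO11* deletion mutants, were set against colonies of KV2668 and KV68, both labelled wild type, after 5 days at 30 °C on YPS, a sucrose medium. KV473 and KV2668 were also grown in liquid medium, with 3 arrays for each of the 6 strain and medium groups. The labels give no genotype beyond *FLO11*, no oxygen reading and no growth phase, and those of the liquid arrays repeat the colony protocol. They do not say whether the 3 arrays of a group came from separate cultures, so the tests measure the spread between arrays, which may be technical.

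Oxygen reaches these genes largely through heme, whose synthesis needs molecular oxygen. In aerated yeast cells heme activates the transcription factor Hap1, which switches on respiratory genes such as *CYC1* and also the repressor gene *ROX1*. Rox1, with the general corepressor Tup1-Cyc8, then holds down the hypoxic genes, among them *COX5B*, *ANB1*, *AAC3* and *HEM13*, and when heme runs low that repression is lifted. *CYC7* answers to Hap1, to Rox1 and to stress-responsive factors, and several genes of the set also answer to glucose repression. In each pair the hypoxic protein can stand in for the aerobic one: iso-2-cytochrome c for iso-1-cytochrome c, subunit Vb for subunit Va of cytochrome c oxidase, and one form of the ribosome factor eIF5A for the other.

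The arrays went against the strain labels. *FLO11* measured 12.76 to 13.31 on the 9 arrays of the strains labelled *flo11*, against 4.65 to 5.43 on the 9 arrays of the strains labelled wild type. Background, read from fission yeast probe sets, lay at 4.34 to 4.56 on the 18 arrays. Strain names are therefore used throughout, and differences run between the named strains. Reading any of them as an effect of *FLO11* rests on labels that the *FLO11* signal opposes. KV473 and KV2668 also differed in mating-type genes, with alpha-specific genes averaging 12.52 to 12.69 on KV473 colony arrays and 7.05 to 7.25 on KV2668 colony arrays. They differed on chromosome XII, where the median difference, KV473 minus KV2668, was −0.81 in colonies over 462 probe sets. None of the 10 genes lies on chromosome XII. The third array of KV68 colonies stood apart, with correlations of 0.917 and 0.909 to the other two arrays of that group. On it the *a*-specific mating genes averaged 9.22 and the alpha-specific genes 8.86, against 6.64 and 6.52 for *a*-specific and 12.82 and 12.89 for alpha-specific genes on the other two. It enlarges the spread shared by all groups, and calls that change without it are given beside the results below.

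The first question was how the genes differed between a colony and a liquid culture of the same strain. In both strains the same 5 genes were higher in colonies at an adjusted p under 0.05 and a log2 difference over 1, which is how a gene is called here: *CYC7*, *COX5B*, *ANB1*, *AAC1* and *HEM13*. That was 5 of 10 in KV473, where 17.8% of all tested probe sets were called and 11.1% were called higher. It was 5 of 10 in KV2668, where 17.4% were called and 10.5% were called higher. None of the 10 was called lower in either strain. On adjusted p alone 6 of 10 passed in KV473 and 8 of 10 in KV2668, beside 71.5% and 69.3% of all tested probe sets, so those counts do not set the 10 genes apart. The colony and liquid arrays did not overlap for 8 of 10 in each strain, beside 82.5% of probe sets in KV473 and 82.2% in KV2668. Levels are relative to each array's total RNA, and a smaller share of cells that express a gene cannot be told apart from less RNA of it in every cell. The median difference over all tested probe sets was −0.16 in KV473 and −0.10 in KV2668.

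**Figure D1:**
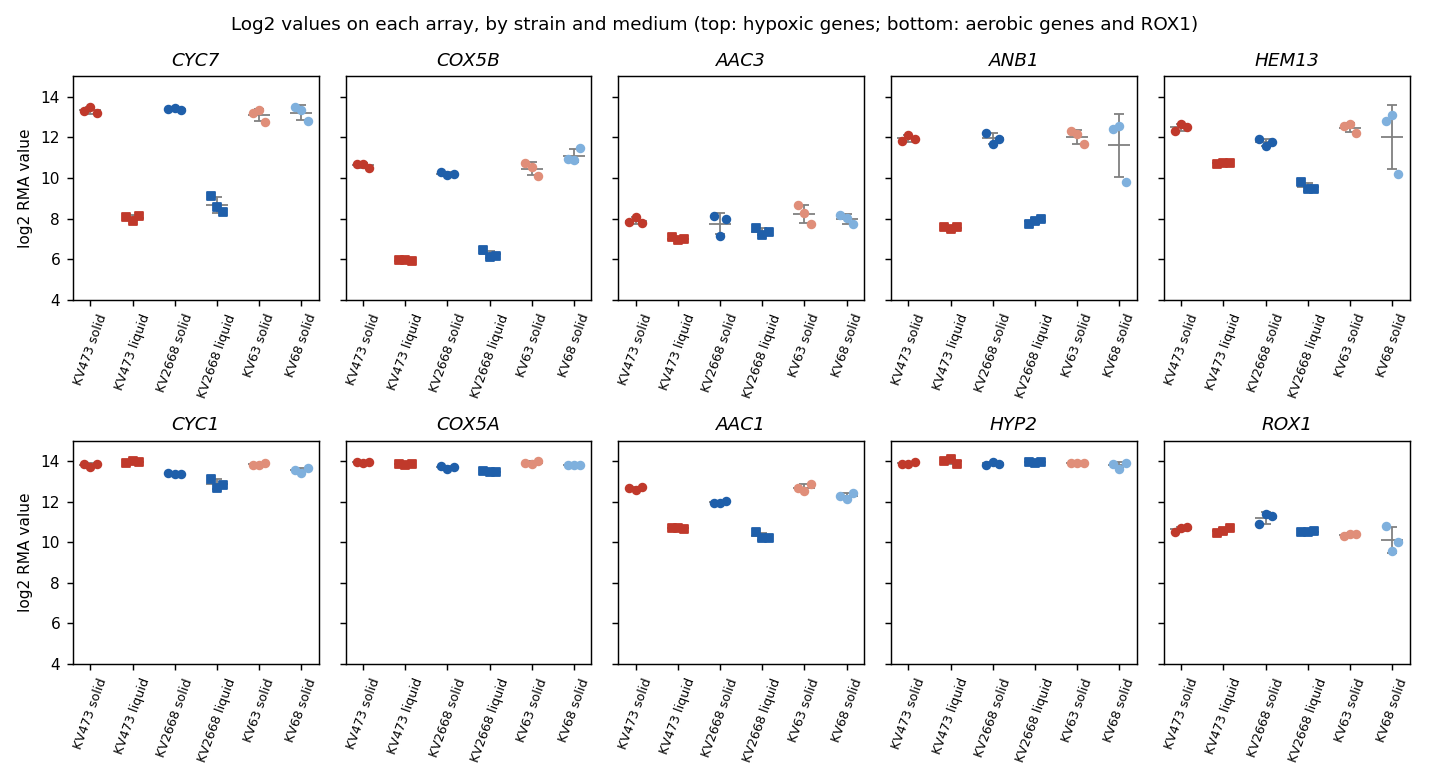
Log2 signal (vertical axis) of each of the 10 genes on every array, by strain and medium, with circles for colony arrays, squares for liquid arrays and bars for the mean and SD of 3 arrays. *CYC7*, *COX5B*, *ANB1* and *AAC1* sit higher on all 12 colony arrays than on any of the 6 liquid arrays, while *HYP2* stays between 13.62 and 14.11 on every array.

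The hypoxic cytochrome c gene *CYC7*, which encodes iso-2-cytochrome c, showed the largest difference among the 10 genes in both strains. *CYC7* measured 13.28, 13.50 and 13.20 in KV473 colonies, against 8.10, 7.89 and 8.14 in KV473 liquid cultures. The KV2668 values were 13.38, 13.47 and 13.35 in colonies and 9.12, 8.58 and 8.32 in liquid. The colony arrays did not overlap the liquid arrays in either strain. The difference, colonies minus liquid, was 5.28 (SE 0.20, adjusted p = 9.1e-12) in KV473, or 39.0-fold. In KV2668 it was 4.73 (SE 0.20, adjusted p = 4.38e-11), or 26.5-fold. Its partner *CYC1* encodes iso-1-cytochrome c, the main electron carrier between respiratory complexes III and IV in aerated cells. *CYC1* measured 13.86, 13.73 and 13.86 in KV473 colonies and 13.93, 14.03 and 13.94 in KV473 liquid cultures, a difference of −0.15 that did not pass the test (95% interval −0.36 to 0.06, adjusted p = 0.19). It measured 13.40, 13.35 and 13.38 in KV2668 colonies, against 13.13, 12.66 and 12.81 in KV2668 liquid cultures. That rise of 0.51 (SE 0.10, adjusted p = 0.000254) passed on adjusted p but stayed under the log2 limit of 1.

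*COX5B* encodes the hypoxic form of subunit V of cytochrome c oxidase, the enzyme that passes electrons to oxygen. *COX5B* measured 10.68, 10.70 and 10.48 in KV473 colonies, against 5.94, 5.96 and 5.89 in KV473 liquid cultures. In KV2668 it measured 10.28, 10.14 and 10.20 in colonies, against 6.44, 6.12 and 6.13 in liquid. The colony arrays again lay wholly above the liquid arrays. The differences were 4.69 (SE 0.16, adjusted p = 1.85e-12) in KV473 and 3.97 (SE 0.16, adjusted p = 1.69e-11) in KV2668, which are 25.8-fold and 15.7-fold. The aerobic subunit gene *COX5A* stayed high everywhere, between 13.61 and 14.02 on the 12 colony arrays and between 13.46 and 13.87 on the 6 liquid arrays. Its colony minus liquid difference was 0.10 in KV473 (95% interval −0.02 to 0.23, adjusted p = 0.128) and 0.21 in KV2668 (95% interval 0.09 to 0.34, adjusted p = 0.00461).

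*ANB1* encodes the hypoxic form of eIF5A, a hypusine-carrying protein that helps the ribosome through difficult peptide bonds. *ANB1* measured 11.82, 12.13 and 11.90 in KV473 colonies, against 7.58, 7.46 and 7.58 in KV473 liquid cultures. The KV2668 values were 12.23, 11.69 and 11.93 in colonies and 7.71, 7.88 and 8.00 in liquid. No colony array came within 3 log2 units of a liquid array of its own strain. The difference was 4.41 (SE 0.49, adjusted p = 1.3e-06) in KV473 and 4.09 (SE 0.49, adjusted p = 2.85e-06) in KV2668, or 21.2-fold and 17.0-fold. Without the third KV68 array the standard error of both differences was 0.15 and the differences themselves were the same. The aerobic gene *HYP2* did not pass the test in any comparison. It measured 13.62 to 13.98 on colony arrays and 13.87 to 14.11 on liquid arrays. Its difference between media was −0.10 in KV473 (95% interval −0.27 to 0.07) and −0.07 in KV2668 (95% interval −0.24 to 0.10). *HYP2* and *ANB1* are near-identical in their coding regions, and how far each probe set also read the other transcript was not tested. *ANB1* and *CYC1* are direct neighbours on chromosome X and lie on opposite strands.

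The ADP/ATP carrier pair behaved otherwise: the aerobic gene was called and the hypoxic gene was not. These carriers exchange ADP for ATP across the inner mitochondrial membrane, and *PET9* encodes the major form in aerated cells. *AAC1* measured 12.67, 12.59 and 12.71 in KV473 colonies, against 10.70, 10.71 and 10.65 in KV473 liquid cultures. In KV2668 it measured 11.93, 11.92 and 12.04 in colonies, against 10.50, 10.19 and 10.20 in liquid. Every colony array exceeded every liquid array. *AAC1* was higher in colonies by 1.97 (SE 0.10, adjusted p = 2.79e-10) in KV473, or 3.91-fold, and by 1.66 (SE 0.10, adjusted p = 1.63e-09) in KV2668, or 3.17-fold. The hypoxic carrier gene *AAC3* had the widest scatter of the 4 hypoxic genes among KV2668 colonies. *AAC3* measured 7.85, 8.07 and 7.77 in KV473 colonies, against 7.10, 6.93 and 7.01 in KV473 liquid cultures. The KV2668 values were 8.11, 7.15 and 7.98 in colonies and 7.53, 7.17 and 7.34 in liquid. The second KV2668 colony array fell below the lowest liquid array, so the groups overlapped in that strain, while in KV473 they did not. *AAC3* was higher in KV473 colonies by 0.88 (SE 0.24, adjusted p = 0.00353), which passed on adjusted p alone. In KV2668 its difference was 0.40 (95% interval −0.10 to 0.90, adjusted p = 0.142). *PET9* was lower in colonies by small amounts, with differences of −0.31 in KV473 (adjusted p = 0.000339) and −0.35 in KV2668 (adjusted p = 0.000108).

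*HEM13* encodes coproporphyrinogen oxidase, an enzyme of heme synthesis that consumes oxygen, and its transcription is known to rise when heme falls. *HEM13* measured 12.29, 12.66 and 12.52 in KV473 colonies, against 10.71, 10.74 and 10.73 in KV473 liquid cultures. In KV2668 it measured 11.93, 11.55 and 11.77 in colonies, against 9.79, 9.45 and 9.45 in liquid. The colony arrays lay above the liquid arrays in both strains, although the liquid cultures of the 2 strains sat apart from each other. *HEM13* was higher in colonies by 1.77 (SE 0.49, adjusted p = 0.00458) in KV473 and 2.19 (SE 0.49, adjusted p = 0.000978) in KV2668, or 3.40-fold and 4.55-fold. Without the third KV68 array the adjusted p-values were 2.86e-09 and 2.11e-10.

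*ROX1*, the gene for the heme-dependent repressor of hypoxic genes, had a higher mean in colonies than in liquid in both strains, and passed the adjusted p in KV2668. *ROX1* measured 10.53, 10.69 and 10.73 in KV473 colonies, against 10.48, 10.57 and 10.68 in KV473 liquid cultures. In KV2668 it measured 10.88, 11.41 and 11.30 in colonies, against 10.51, 10.49 and 10.56 in liquid. The KV473 groups overlapped, with a difference of 0.07 (95% interval −0.39 to 0.54, adjusted p = 0.771). In KV2668 every colony array lay above every liquid array, and the rise of 0.68 (SE 0.22, adjusted p = 0.0114) passed on adjusted p alone. The array values are transcript levels and say nothing of Rox1 protein.

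**Figure D2:**
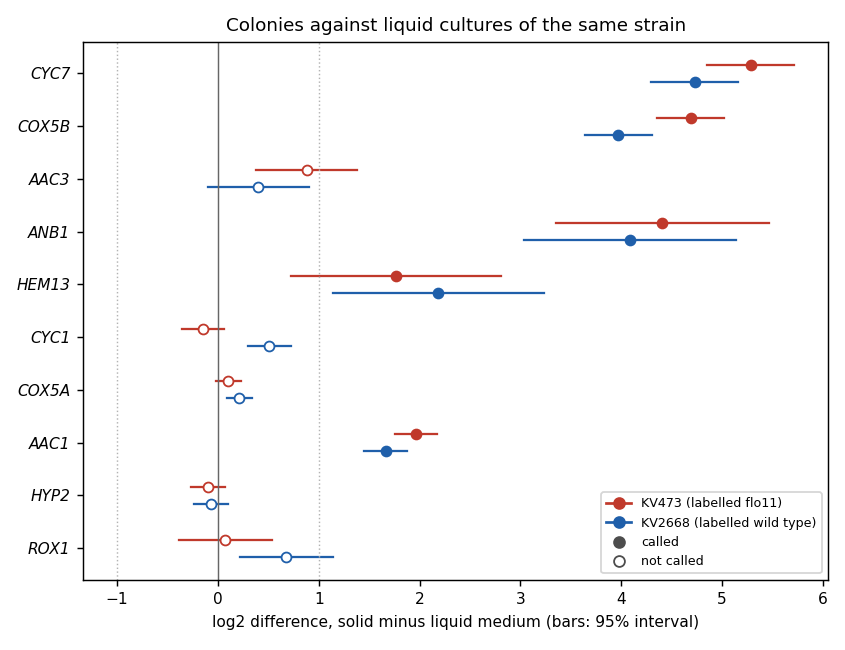
Log2 difference, colonies minus liquid (horizontal axis), for each gene (vertical axis) in KV473 and KV2668, with 95% intervals and dotted lines at −1 and 1. Filled points mark called genes; *CYC7*, *COX5B* and *ANB1* lie near 4 to 5 in both strains, and *CYC1*, *COX5A*, *HYP2* and *ROX1* lie within 1 of 0.

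Set within the pairs, the hypoxic gene was called and its aerobic partner was not in 3 of 4 pairs, in both strains. The shift within a pair, taken as the hypoxic gene's medium difference minus that of the aerobic gene, was 5.43 in KV473 and 4.22 in KV2668 for the cytochrome c genes. For the oxidase subunits it was 4.59 and 3.76 in the same order of strains. The eIF5A genes shifted by 4.51 in KV473 and 4.16 in KV2668. The carrier genes shifted the other way, by −1.08 in KV473 and −1.26 in KV2668, since *AAC1* changed more than *AAC3*. These shifts carry no test of their own. *COX5A* and *HYP2* lay between 13.46 and 14.11 on all arrays. *CYC1* lay between 12.66 and 14.03 on all arrays, and *CYC7* between 12.77 and 13.50 on colony arrays. Whether signals that high still followed RNA amounts was not tested.

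Many other genes are known to be raised by yeast when oxygen is low. A list of 13 such genes was drawn up from textbook knowledge, but with earlier results of these data known, so its counts are a description. Of these 13 genes, 12 were called higher in KV473 colonies, beside 11.1% of all tested probe sets, and 6 in KV2668 colonies, beside 10.5%. None of the 13 genes was called lower. Their median difference was 2.75 in KV473 and 1.43 in KV2668, beside −0.16 and −0.10 over all tested probe sets. *DAN1*, a mannoprotein of the anaerobic cell wall, averaged 13.17 ± 0.23 in KV473 colonies, against 4.35 ± 0.32 in KV473 liquid cultures (SD, n = 3 each), where it was above background on 1 of 3 arrays. In KV2668 it averaged 11.89 ± 0.38 in colonies and 4.46 ± 0.42 in liquid (SD, n = 3 each), again above background on 1 of 3 liquid arrays. *TIR1*, another anaerobic wall mannoprotein, was higher by 6.78 (SE 0.87, adjusted p = 5.53e-06) in KV473 and by 4.78 (SE 0.87, adjusted p = 0.000171) in KV2668. *TIR4* was called in both strains too, at 6.56 and 4.78. *UPC2*, the sterol-sensing activator of such genes, was higher by 3.49 (SE 0.27, adjusted p = 2.55e-08) in KV473 and 2.07 (SE 0.27, adjusted p = 5.42e-06) in KV2668. *OLE1*, the fatty acid desaturase that needs oxygen, averaged 14.11 ± 0.10 in KV473 colonies and 12.97 ± 0.02 in KV473 liquid cultures. In KV2668 *OLE1* averaged 13.81 ± 0.05 in colonies and 13.06 ± 0.02 in liquid, a difference of 0.75 that was not called. *DAN1* reached 13.72 among KV68 colonies but measured 6.42 on the third KV68 array. Without that array 7 of the 13 were called in KV2668, beside 17.7% of all tested probe sets.

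Regulators of these genes and genes for heme and respiration were counted in the same way. Of 14 regulators of hypoxic and heme-dependent genes, 4 were called higher in KV473 colonies, namely *HAP1*, *UPC2*, *SUT1* and *MGA2*, and 3 in KV2668 colonies, namely *HAP4*, *UPC2* and *IXR1*. The shares of all tested probe sets called higher were 11.1% in KV473 and 10.5% in KV2668. *MGA2*, an activator of *OLE1*, was called in KV2668 as well without the third KV68 array, at 1.03. *HAP1*, which encodes the heme sensor, averaged 10.48 ± 0.02 in KV473 colonies and 9.43 ± 0.03 in KV473 liquid cultures, a difference of 1.05 (SE 0.08, adjusted p = 3.14e-08). In KV2668 its difference was 0.09 (adjusted p = 0.349). The corepressor genes *TUP1* and *CYC8* were lower in colonies on adjusted p alone, *TUP1* by differences of −0.82 in KV473 and −0.34 in KV2668, and *CYC8* by −0.64 and −0.65. On that rule 8 of the 14 regulators were higher and 4 lower in KV473, and 7 higher and 2 lower in KV2668. Of all tested probe sets, 71.5% passed it in KV473 and 69.3% in KV2668. Of the 7 other heme synthesis genes none was called in KV473, and *HEM1* and *HEM15* were called higher in KV2668 colonies, by 1.10 and 1.61. None of the 7 other nuclear genes for cytochrome c oxidase subunits was called in either strain, where limma put 3 higher in KV473 and 6 higher in KV2668 on adjusted p alone. Of 8 oxidative genes activated by heme, the catalase gene *CTT1* was higher in colonies of both strains, by 4.14 in KV473 and 5.35 in KV2668. *CCP1*, cytochrome c peroxidase, was called in KV2668 alone, at 3.17, against 0.71 in KV473. On adjusted p alone 3 of these 8 genes were higher and 2 lower in KV473 colonies, and 5 higher and 2 lower in KV2668 colonies. None of the 3 genes for cytochrome c maturation and import was called in either medium comparison. *DYS1*, which starts the hypusine modification that both eIF5A forms carry, was called lower in KV473 colonies, with a difference of −1.12, and in KV2668 its difference was −0.99 (adjusted p = 3.02e-08).

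**Figure D3:**
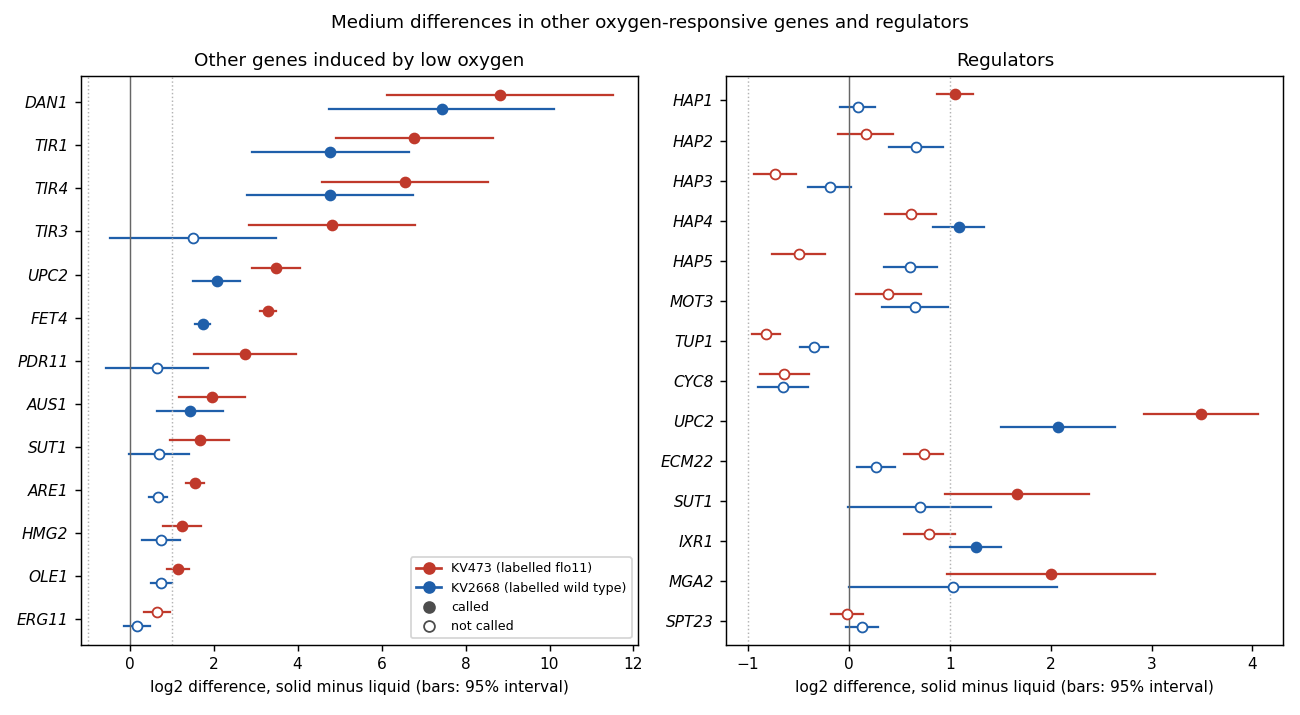
Log2 difference, colonies minus liquid (horizontal axes), in KV473 and KV2668 for the 13 other low-oxygen genes (left) and 14 regulators (right), with 95% intervals and filled points for called genes. *DAN1* has the highest points, although its liquid level was above background on 1 of 3 arrays in each strain, *UPC2* and *SUT1* stand on both lists, and no gene is called lower.

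Whether the difference between media itself differed between strains was tested as an interaction, the KV473 difference minus the KV2668 difference. None of the 10 genes was called, where 6.08% of tested probe sets were, and 3 had an unadjusted p under 0.05 in limma. On adjusted p alone 2 of 10 passed, beside 32.7% of all tested probe sets. At least that 32.7% also had an unadjusted p under 0.05. *COX5B* responded more in KV473, by 0.72 (SE 0.22, adjusted p = 0.0224). *CYC1* responded less in KV473, with an interaction of −0.66 (SE 0.14, adjusted p = 0.00223). For *CYC7* the interaction was 0.56 (95% interval −0.05 to 1.17) and for *ANB1* 0.32 (95% interval −1.17 to 1.81), and neither passed. On the low-oxygen list *FET4* and *UPC2* were called, at 1.56 and 1.42. Without the third KV68 array 7 of the 13 were called, beside 7.15% of all tested probe sets. That added *PDR11*, *DAN1*, *TIR1*, *TIR3* and *TIR4*, with larger differences in KV473. *DAN1* was near background in the liquid cultures of both strains, so its medium differences are limited by background there.

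The next comparison set colonies of KV473 against colonies of KV2668, to ask whether the strains differed on the same solid medium. None of the 10 genes was called, where 5.75% of tested probe sets were, and 5 had an unadjusted p under 0.05 in limma. On adjusted p alone 4 of 10 passed, all higher in KV473, beside 43% of all tested probe sets, with 20.2% of tested probe sets higher in KV473. At least that 43% also had an unadjusted p under 0.05. The arrays of the strains did not overlap for 6 of 10, beside 62.1%. The 4 past the adjusted p were 3 aerobic genes and *COX5B*. *CYC1* differed by 0.44 (SE 0.10, adjusted p = 0.00214). *COX5A* measured 13.98, 13.90 and 13.96 in KV473 colonies, against 13.74, 13.61 and 13.73 in KV2668 colonies, a difference of 0.25 (SE 0.06, adjusted p = 0.00298). *AAC1* differed by 0.69 (SE 0.10, adjusted p = 5.61e-05) and *COX5B* by 0.41 (SE 0.16, adjusted p = 0.0443). *ROX1* lay lower on every KV473 array than on any KV2668 array, with a difference of −0.55 (95% interval −1.01 to −0.09, adjusted p = 0.053), and without the third KV68 array its adjusted p was 0.0319. *HEM13* lay higher on every KV473 array, by 0.74 (adjusted p = 0.242), and without that array its adjusted p was 0.000141. *CYC7* and *ANB1* overlapped between the strains, with differences of −0.07 for *CYC7* (95% interval −0.50 to 0.36) and −0.00077 for *ANB1* (95% interval −1.05 to 1.05). Of the 13 other low-oxygen genes *UPC2* was called, at 1.46. Without the third KV68 array 5 were called, beside 6.14% of all tested probe sets. These 5 were all higher in KV473: *UPC2*, *PDR11*, *DAN1*, *TIR3* and *TIR4*. No other gene of the related lists was called between these colonies, and none was called between KV63 and KV68 colonies.

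KV63 colonies against KV68 colonies gave a second comparison of a strain labelled *flo11* with a strain labelled wild type. None of the 10 genes was called, where 0.442% of tested probe sets were, and 4 had an unadjusted p under 0.05 in limma. On adjusted p alone 2 of 10 passed, beside 10.6% of all tested probe sets, and the arrays did not overlap for 5 of 10, beside 24.4%. At least that 10.6% also had an unadjusted p under 0.05. *COX5B* measured 10.72, 10.55 and 10.11 in KV63 colonies, against 10.93, 10.90 and 11.46 in KV68 colonies. The groups did not overlap, and *COX5B* was lower in KV63 with a difference of −0.64 (SE 0.16, adjusted p = 0.0205). *AAC1* measured 12.66, 12.51 and 12.85 in KV63 colonies, against 12.30, 12.15 and 12.42 in KV68 colonies, and was higher in KV63 by 0.38 (SE 0.10, adjusted p = 0.026). *ANB1* and *HEM13* depended on the third KV68 array. *ANB1* measured 12.31, 12.16 and 11.65 in KV63 colonies and 12.43, 12.58 and 9.80 in KV68 colonies. *HEM13* measured 12.56, 12.65 and 12.22 in KV63 colonies and 12.79, 13.08 and 10.22 in KV68 colonies. The third KV68 array minus the mean of the other two was −2.71 for *ANB1*, −2.72 for *HEM13* and 0.54 for *COX5B*. Of all tested probe sets, 4.79% lay more than 1 below that mean on this array. The KV63 minus KV68 difference was 0.44 for *ANB1* and 0.45 for *HEM13* with the array, and −0.46 and −0.46 without it, so both changed sign. Without it *HEM13* passed the adjusted p as lower in KV63 (adjusted p = 0.0369) and *CYC1* as higher, by 0.35 (adjusted p = 0.0249). The mating-type gene levels given above moved with the same array, and their part in these values was not tested.

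**Figure D4:**
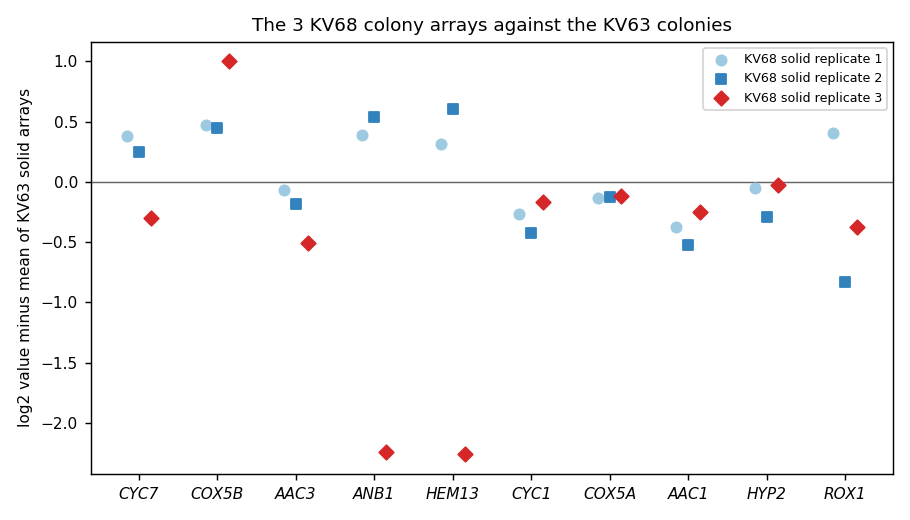
Difference of each KV68 colony array from the mean of the KV63 colonies (log2), for each of the 10 genes. On the third KV68 array *ANB1* and *HEM13* sit at −2.24 and −2.26 from the KV63 mean, while the other two arrays sit above it.

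In liquid medium KV473 and KV2668 were compared without a colony around the cells. *CYC1* was the 1 gene of 10 called, where 8.08% of tested probe sets were, and 4 of 10 passed on adjusted p alone beside 36.8%. *CYC1* measured 13.93, 14.03 and 13.94 in KV473 liquid cultures, against 13.13, 12.66 and 12.81 in KV2668 liquid cultures. It was higher in KV473 by 1.10 (SE 0.10, adjusted p = 2.9e-07), or 2.14-fold, and without the second KV2668 array by 0.998, just under the limit. *COX5A* and *AAC1* were higher in KV473 too, *COX5A* by 0.36 (SE 0.06, adjusted p = 0.000131) and *AAC1* by 0.39 (SE 0.10, adjusted p = 0.00527). Of the hypoxic genes, *CYC7* was lower in KV473, at 8.10, 7.89 and 8.14 against 9.12, 8.58 and 8.32 in KV2668, with a difference of −0.63 (SE 0.20, adjusted p = 0.0235). *COX5B*, *AAC3* and *ANB1* lay lower on every KV473 liquid array than on any KV2668 liquid array, with differences of −0.30, −0.33 and −0.32 that did not pass. *COX5B* passed on adjusted p alone without the third KV68 array (adjusted p = 0.0474). In all the arrays did not overlap for 8 of 10, beside 65.4% of tested probe sets. *HEM13* lay higher on every KV473 liquid array, by 1.16 (SE 0.49, adjusted p = 0.0768). Without the third KV68 array, which is not among the 6 arrays compared, its standard error was 0.13 and it was called (adjusted p = 9.55e-07).

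The related genes differed between the liquid cultures in both directions, where 8.08% of all tested probe sets were called. Among the other heme synthesis genes 3 of 7 were called higher in KV473 liquid cultures, *HEM1* by 1.09, *HEM3* by 1.17 and *HEM15* by 1.35. Their list had a median of 0.75, beside −0.02 over all tested probe sets. On the low-oxygen list *FET4* and *HMG2* were called lower in KV473, at −1.81 and −1.11. Without the third KV68 array, which is not in this comparison, 5 of the 13 were called lower. In that fit 8.28% of all tested probe sets were called either way. The genes added were *PDR11*, *TIR1* and *TIR3* at −1.06, −1.24 and −2.20. Of the regulators *HAP5*, a subunit of the complex that activates respiratory genes, was called higher at 1.01, and *HAP1* and the sterol regulator *ECM22* were called lower. Of the oxidative genes *CYT1* and *CCP1* were called higher, at 1.30 and 2.27, and so was *CYT2* at 1.48. *HMG2*, *HAP1* and *ECM22* lie on chromosome XII, whose median difference in liquid was −0.87 over 462 probe sets. *HAP1* averaged 9.43 ± 0.03 in KV473 liquid cultures and 10.57 ± 0.06 in KV2668 liquid cultures (SD, n = 3 each), a difference of −1.14 (SE 0.08, adjusted p = 3.58e-08), and *ECM22* differed by −1.30.

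**Figure D5:**
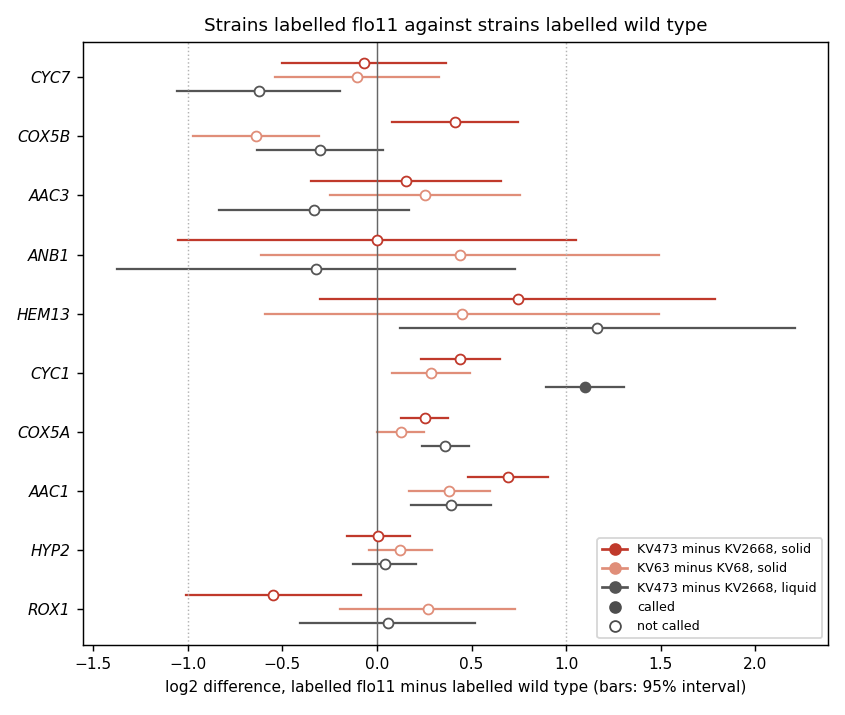
Log2 difference between strains, with 95% intervals, for each gene in KV473 minus KV2668 colonies, KV63 minus KV68 colonies and KV473 minus KV2668 liquid cultures. *CYC1* in liquid lies past 1, and the KV63 minus KV68 intervals of *ANB1* and *HEM13* span 0.

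Colonies of strains with the same label were also compared. KV63 and KV473 colonies gave no called probe set of the 5424 tested (0%), with none past the adjusted p, and none of the 10 genes had an unadjusted p under 0.05 in limma. The differences of the 10 genes had a median of 0.00. KV68 colonies against KV2668 colonies gave 1 of 10, *ROX1*, where 5.22% of tested probe sets were called. These strains also differed on chromosome XII, with a median KV68 minus KV2668 difference of −0.80 over 462 probe sets. Alpha-specific genes averaged 12.82 and 12.89 on the first and second KV68 arrays, and 7.05 to 7.25 on the KV2668 colony arrays. The part of these differences in the values below was not tested. *ROX1* measured 10.79, 9.55 and 10.01 in KV68 colonies, against 10.88, 11.41 and 11.30 in KV2668 colonies, and was lower in KV68 with a difference of −1.08 (SE 0.22, adjusted p = 0.00102). Without the second KV68 array that difference was −0.80 and without the second KV2668 array −0.97, both under the limit. With arrays weighted by their residual spread it was −0.62, also under the limit, and *HEM13* was called instead, at 1.03. *HEM13* differed by 0.28 (adjusted p = 0.679), and without the third KV68 array it was higher in KV68 by 1.18 and called (adjusted p = 4.1e-06). *COX5B* was higher in KV68 by 0.89 (SE 0.16, adjusted p = 0.000351). The strain difference in *COX5B* ran opposite ways in the 2 comparisons of colonies, 0.41 for KV473 minus KV2668 and −0.64 for KV63 minus KV68. Tested directly, those 2 values differed by 1.05 (SE 0.22, adjusted p = 0.00301), which was called, as were 4.61% of tested probe sets. Without the third KV68 array the difference was 0.87, and without the third KV63 array 0.88, both under the limit. *HEM13* was called in this contrast without the third KV68 array, at 1.20 (adjusted p = 0.000133), against 0.29 with it (adjusted p = 0.806). The chromosome XII median of this contrast was −0.79.

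Over the 6 groups, *CYC7*, *COX5B*, *ANB1* and *AAC1* had all 4 colony groups above both liquid groups. For *HEM13* the group means followed the same split, but the third KV68 colony array, at 10.22, fell below the KV473 liquid arrays. Within the colony groups *CYC7* averaged 13.33 ± 0.16 in KV473, 13.11 ± 0.31 in KV63, 13.22 ± 0.36 in KV68 and 13.40 ± 0.06 in KV2668 (SD, n = 3 each), and these overlapped. *COX5B* ran from KV68 colonies, at 11.10 ± 0.31, through KV473 colonies, at 10.62 ± 0.12, and KV63 colonies, at 10.46 ± 0.31, to KV2668 colonies, at 10.20 ± 0.07, with only the KV68 group apart from its neighbour. *AAC1* averaged 12.67 ± 0.17 in KV63 and 12.65 ± 0.06 in KV473 colonies, which overlapped, then 12.29 ± 0.13 in KV68 and 11.96 ± 0.07 in KV2668 colonies, which lay apart. *CYC1* had another order: its highest mean was 13.96 ± 0.05 in KV473 liquid cultures and its lowest 12.87 ± 0.24 in KV2668 liquid cultures, with the colony groups between. *ROX1* was highest in KV2668 colonies, at 11.20 ± 0.28, and lowest in KV68 colonies, at 10.12 ± 0.63. *HYP2* group means spanned 0.21 in all, the narrowest span of the 10 genes.

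The tested genes whose level followed each of the 10 most closely were found by Pearson's r over the 18 arrays, as a description, since the arrays share groups and most of these patterns carry the split between media. *CYC1* was followed by *RIP1*, *ACH1* and *SDH1*, at Pearson's r of 0.979, 0.966 and 0.960. *RIP1* is the Rieske iron-sulphur protein of complex III and *SDH1* a subunit of complex II. *COX5A* was followed by *COX4*, *FUS1* and *COQ5*, at Pearson's r of 0.956, 0.946 and 0.944. *COX4* is a subunit of the same oxidase. *CYC7* was followed by *SPI1*, *GPG1* and *HSP26*, at Pearson's r of 0.996, 0.994 and 0.994. *HSP26* is a small heat shock protein and *SPI1* a cell wall protein of stationary cells. *COX5B* was followed by *YNL134C*, *RTS3* and *URA10*, at Pearson's r of 0.997, 0.997 and 0.995. *ANB1* was followed by *MAL11*, *TSA2* and *MAL31*, at Pearson's r of 0.996, 0.989 and 0.989. *MAL11* and *MAL31* encode maltose transporters and *TSA2* a peroxiredoxin. *HEM13* was followed by *SCW4*, *MSH5* and *AFR1*, at Pearson's r of 0.973, 0.964 and 0.961. *AAC1* was followed by *YSF3*, *PIC2* and *NCA3*, at Pearson's r of 0.980, 0.974 and 0.973. *PIC2* is a carrier of the inner mitochondrial membrane. *ROX1* was followed by *CYC3*, *CLN3* and *GFD2*, at Pearson's r of 0.893, 0.864 and 0.856. *CYC3* attaches heme to cytochrome c and *CLN3* is a cyclin of early G1. *AAC3* was followed by *PIS1*, *LOH1* and *YPR015C*, at Pearson's r of 0.905, 0.872 and 0.866, and *HYP2*, whose level hardly varied, by *KRI1*, *YNL162W-A* and *UTP18*, at Pearson's r of 0.785, 0.773 and 0.758.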

How the data were processed

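Total RNA from 18 samples was hybridised to Affymetrix Yeast 2.0 arrays. The authors deposited log2 values made by RMA (version not given), which summarises and quantile-normalises probe sets across arrays, so levels are relative. Of 7686 probe sets, 6145 carried 1 gene symbol, 1 several and 1540 none in the platform annotation. Symbols were updated for 12. *S. pombe* probe sets (676) gave the background, the 95th percentile of each array, and a *S. cerevisiae* probe set entered the tests if it exceeded this on 3 or more arrays (5424 did).

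The 6 groups of 3 arrays were fitted together with limma 3.58.1 in R 4.3.3 (lmFit and eBayes, 12 residual degrees of freedom), with Benjamini-Hochberg adjustment over all tested probe sets; a gene was called where its adjusted p was under 0.05 and its log2 difference exceeded 1 in size. Differences are colonies minus liquid, or the strain labelled *flo11* minus the strain labelled wild type. The steps were tested on simulated data. No column lacked a sample, and no 2 arrays held identical values. Arrays carry no read depth, and their number limits the precision.

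The 10 genes and the lists were chosen with earlier results of these data known, and no list was tested as a set. Other genes named are *FLO11*, *PET9*, up to 4 called genes of each list in each comparison, and the 3 tested genes most correlated with each of the 10. *OLE1*, *PDR11*, *MGA2* in KV2668, *TUP1*, *CYC8*, and *DYS1* and *HAP1* in KV2668 colonies, were named outside that rule, after their values were seen. A promoter motif search was not run because no sequences were used here.

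Deviations of same-numbered arrays correlated at 0.40, 0.27 and 0.52 in KV63 and KV68 colonies, and at −0.04 to 0.21 in the other comparisons. Yet KV63 array 1 followed KV68 array 2 most closely, and KV63 array 2 followed KV68 array 1. Only the third arrays followed their own number most closely there. In KV2668 every colony array followed the liquid array of its own number most closely, but at 0.01 to 0.10. Alternatives were no filter on dim probe sets, values floored at background, arrays centred on their median, array weights, a trended variance prior, the arrays of the compared strains alone, a replicate block, calling on adjusted p alone and leaving out each array. The setting without the third KV68 array in comparisons that do not contain it was chosen after seeing the data.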

Additional observations from a re-analysis of the deposited data

Results flagged for a closer look

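The response to the medium, colonies minus liquid, was tested for a difference between strains, KV473 minus KV2668. Of the 10 oxygen-regulated genes 2 passed on adjusted p alone, *CYC1* (−0.66, adjusted p = 0.00223) and *COX5B* (0.72, adjusted p = 0.0224). None was called in limma, and 3 had an unadjusted p under 0.05. Of all tested probe sets, 32.7% passed on adjusted p alone, and at least as many had an unadjusted p under 0.05. Of 14 regulators 1 was called with a positive and 1 with a negative difference, and of 13 low-oxygen genes 2, with *UPC2* on both lists. Called with negative differences were 1 of 7 heme synthesis genes, 3 of 8 oxidative genes and 1 of 3 cytochrome c maturation genes. The share of all tested probe sets called was 6.08%. Without the third KV68 array *PDR11*, *DAN1*, *TIR1*, *TIR3* and *TIR4* were called as well. The difference was positive for the activator *UPC2* (1.42) and the iron transporter *FET4* (1.56), which were higher in colonies of both strains. It was negative for the catalase *CTT1* (−1.21) and cytochrome c peroxidase, *CCP1* (−2.47), also higher in colonies of both strains. It was negative for the Hap complex subunit *HAP5* (−1.11) and for *CYT2*, which attaches heme to cytochrome c1 (−1.43). Those 2 ran opposite ways, *HAP5* at −0.50 in KV473 and 0.61 in KV2668, and *CYT2* at −0.44 in KV473 and 0.99 in KV2668. *HEM3*, of heme synthesis, differed by −1.09, with −0.92 in KV473 and 0.17 in KV2668. Cytochrome c1, *CYT1*, differed by −1.12, with −0.19 in KV473 and 0.93 in KV2668. Further related genes passed on adjusted p alone, among them *HAP1* (0.96), *HEM1* (−0.73) and *TUP1* (−0.48). The strain difference of *COX5B* among colonies differed between the KV473 and KV2668 pair and the KV63 and KV68 pair by 1.05 (adjusted p = 0.00301).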

How the results depend on the processing

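The 5 calls between media held in both strains under every alternative run. On adjusted p alone 8 of 10 passed in KV2668 between media, beside 69.3% of all tested probe sets. Among colonies 4 passed in KV473 against KV2668, beside 43%, and 2 in KV63 against KV68, beside 10.6%. Between the liquid cultures 4 passed, beside 36.8%, and in the interaction 2, beside 32.7%. In KV68 against KV2668 colonies *COX5B*, *AAC1* and *ROX1* passed, and the share of all tested probe sets was not counted there. In liquid the count of called genes was 2 when only the compared strains were fitted and 2 with array weights. In the contrast of the 2 strain differences it was 0 with array weights. Leaving out an array gave counts of 0 to 2 in each of the liquid comparison, KV68 against KV2668 and the contrast of strain differences.

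Directions that turned all belonged to differences not called with all arrays in the fit. With array weights the difference was −0.0761 for *AAC3* in KV473 against KV2668 colonies, and −0.20 for *ANB1*, −0.30 for *ROX1* and −0.24 for *HEM13* in KV63 against KV68. With each array centred on its median, *ANB1* in KV473 against KV2668 colonies was 0.0385. Leaving out an array, the differences in KV473 against KV2668 colonies ranged over −0.13 to 0.14 for *ANB1*, −0.0322 to 0.0513 for *HYP2* and −0.15 to 0.33 for *AAC3*. In KV63 against KV68 they ranged over −0.31 to 0.0638 for *CYC7*, −0.0166 to 0.60 for *ROX1*, −0.46 to 0.92 for *ANB1* and −0.46 to 0.97 for *HEM13*. *HYP2* ranged over −0.0155 to 0.11 in liquid and −0.0993 to 0.022 in the interaction. *HEM13* ranged over −0.25 to 1.18 in KV68 against KV2668 and −0.23 to 1.20 in the contrast of strain differences. The cause of these changes was not tested.

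With the replicate number as a block, the counts of called genes were 5 in each medium comparison, 1 in liquid and 0 in the other strain comparisons of the main design, and this pairing changed no call. The precision is limited by 3 arrays a group and by the third KV68 array, whose spread enters every standard error.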
